A study of Drosophila melanogaster with 10 samples.

Results

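Genes whose symbol is CR followed by a number are Drosophila melanogaster loci that the fly annotation listed as transcribed without a protein product, and 41 of them were expressed in sorted central brain neuroblasts, the stem cells that build the fly brain. They were chosen by name and level: 274 of the 14210 genes deposited by the authors carry such a symbol, CR43283 was left out, and 41 of the other 273 had a mean of at least 1 FPKM over the 6 biological replicates. FPKM counts sequenced fragments scaled to the length of the transcript and to the mapped fragments of the library, so it compares levels per length. Of the 232 that did not reach this level, 119 were listed at 0 in every replicate and 113 had a mean above 0. The level chose the genes, so that they are expressed is not a result. Changes between groups did not enter the choice, but 10 of the 41 had a mean under 1 FPKM in at least 1 group and passed through the others, while 31 were at 1 FPKM or more in all 3 group means.

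The 3 groups were wild-type late third-instar larvae, wild-type pupae 0 to 2 h after pupa formation, and pupae of that age with an RNA interference (RNAi) construct against med27, which encodes a subunit of the Mediator complex that links transcription factors to RNA polymerase II. All animals carried inscuteable-Gal4, which drives expression in neuroblasts, and UAS-CD8::GFP, a membrane-bound marker. The RNAi construct came from the VDRC collection, and wild-type animals carried its VIE-260B site without a construct, so they are driver and marker carriers too. Eggs were laid for 24 h, animals were kept at 29 °C for 5 days (larvae) or 6 days (pupae), and large cells with strong GFP were sorted. Each group held 2 biological replicates (n = 2 throughout, with replicate numbers from the labels), pupal replicates were each sequenced in 2 technical runs, which were averaged, and tests measure only the spread between these replicates. How many animals gave a replicate is not stated in the labels.

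Non-coding transcripts do not act through a protein. Primary transcripts of microRNA genes are cut by Drosha and Dicer-1 into short RNAs that repress messenger RNAs by base pairing, and long hairpin RNAs are cut by Dicer-2 into endogenous small interfering RNAs (siRNAs). Antisense RNAs run against a gene on the opposite strand, and for most other long non-coding RNAs (lncRNAs) no function is established. All 41 were found in RefSeq, and in the Ensembl annotation 37 matched by gene identifier and 4 by symbol. A gene overlapped by a microRNA gene on the same strand was classed as a microRNA host, and the other classes follow the current RefSeq entries. The 41 comprised 5 microRNA hosts, 3 hairpin RNAs, 9 antisense RNAs, 21 other lncRNAs, 2 pseudogenes and 1 gene that is now annotated as protein-coding (CR43473, CG1172). So not all of them are non-coding as their name says. Of the 41 loci, 10 lie on X, 9 on 3L, 7 each on 2L, 2R and 3R, and 1 on chromosome 4.

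Error bounds in the deposited tables implied about 18676801 to 18981107 mapped fragments per larval library and 27336601 to 31263678 per pupal run, and 6806 to 7087 genes reached 1 FPKM in a run. The targeted gene MED27 stood at 27.4 to 38.3 FPKM in the 4 wild-type replicates and at 5.33 and 3.99 in the RNAi replicates, a log2 fold change against wild-type pupae of -2.43 (SE 0.15, limma adjusted p = 0.000522). The 7 neuroblast markers summed to 1408 to 1495 FPKM in larvae, 1796 to 1804 in wild-type pupae and 1564 to 1593 in RNAi pupae. The 4 intermediate progenitor markers summed to 9.25 to 11.6, 19.2 to 21.2 and 16.3 to 17.6 FPKM in the same order. Haemocyte and fat body markers summed to at most 1.15 and 0.34 FPKM. In either list 5 genes were found by symbol and 0 of them had a mean of 1 FPKM. Lsp1alpha was at 0 throughout, and the haemocyte marker NimC1 was not found by symbol. The 5 glial markers (2 of them at 1 FPKM) summed to 159.4 to 192.1 FPKM in larvae. They summed to 183 to 186.3 in wild-type pupae and to 148.8 to 149.8 in RNAi pupae. The 6 neuronal markers that were found, 5 of them at 1 FPKM, also moved with the groups. They summed to 32.8 to 40.9 FPKM in larvae, to 100.5 and 186.7 in wild-type pupae and to 93.6 to 95.9 in RNAi pupae, and the 6 optic lobe markers to 57.1 to 73.9, 155.9 to 169.4 and 98.7 to 114.9 in the same order. The second wild-type pupal replicate also stood apart in CR40469 and CR43767, described below. Larval libraries carry another flow-cell code than all pupal ones, so stage and sequencing run cannot be told apart.

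Most of the 41 genes were low and a few were very high. The mean lay between 1 and 2 FPKM for 15, between 2 and 10 for 14, between 10 and 100 for 7 and above 100 for the other 5, led by CR34335 and CR40469. The mean was highest in larvae for 19 genes, in wild-type pupae for 12 and in RNAi pupae for 10. At the lower edge, CR43723 (1.12 FPKM), CR42547 (1.08) and CR43356 (1.04) were just inside the threshold, and CR43629 (0.979), CR43470 (0.882) and CR30055 (0.871) just outside. Depth limits the low genes: in each larval library 25 of 41 rested on fewer than 100 implied fragments and 5 on fewer than 20, against 9 to 13 and 0 to 3 in the pupal replicates.

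**Figure D1:**
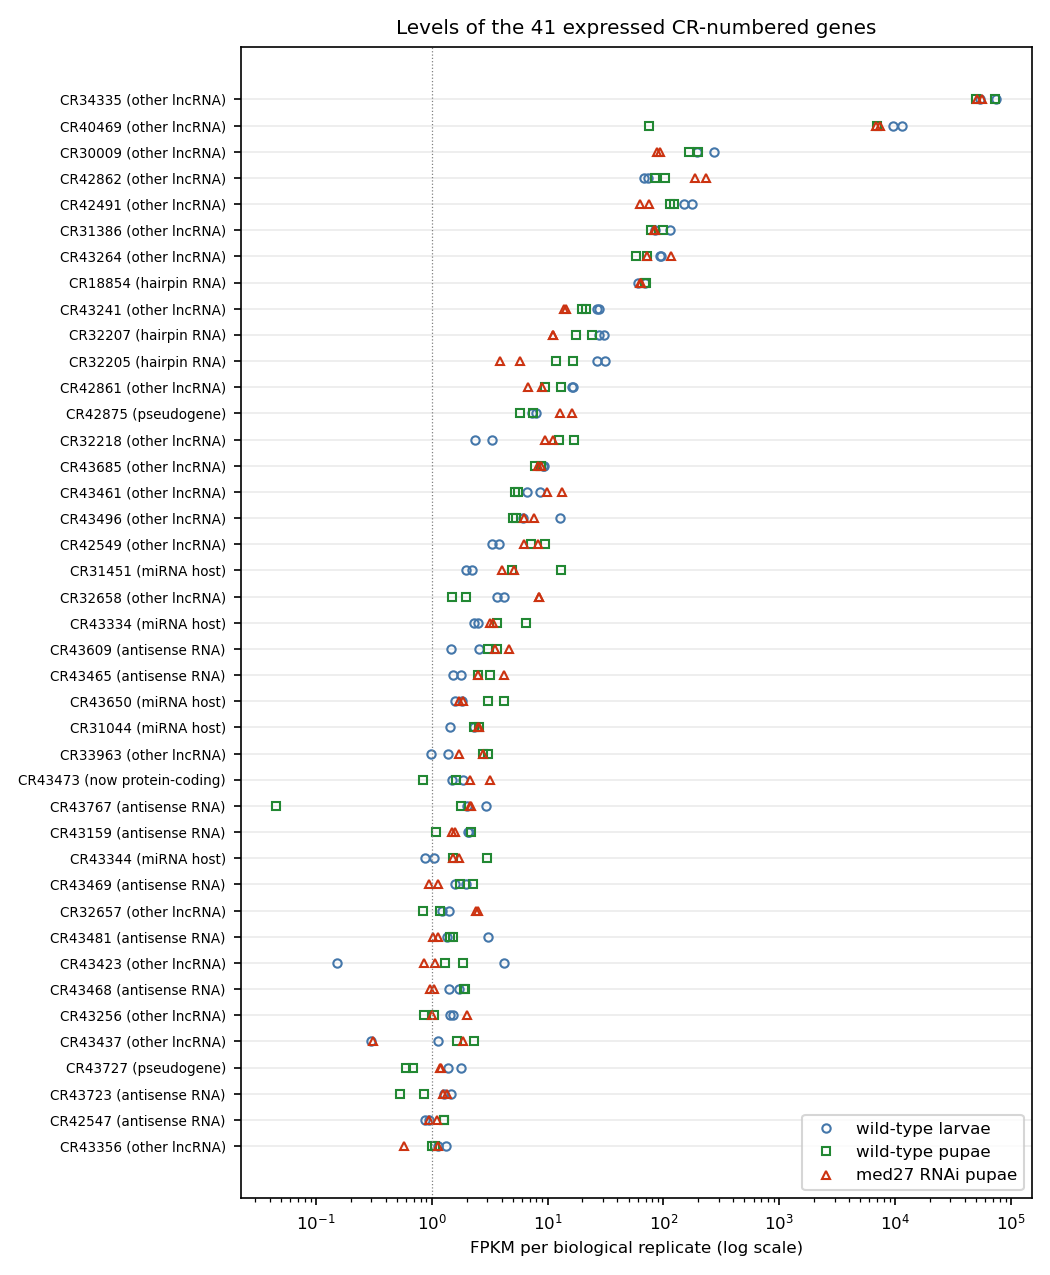
FPKM on a log axis of the 41 expressed CR-numbered genes, ordered by their mean over all replicates, 1 symbol per biological replicate (circles wild-type larvae, squares wild-type pupae, triangles med27 RNAi pupae); the dotted line marks 1 FPKM. CR34335 lies at 50127 FPKM or more in every replicate, and 1 wild-type pupal square of CR40469 lies at 75.3 FPKM, far to the left of its other 5 replicates.

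Comparing wild-type pupae with wild-type larvae asked what differs between neuroblasts before and after pupa formation. Of the 41, 7 were higher and 7 lower in pupae by limma on log2(FPKM + 1) at an adjusted p below 0.05, beside 22.7% higher and 26.5% lower (49.2% in either direction) among all 6992 genes tested. The genes that rose were the lncRNAs CR32218, CR42549, CR33963 and CR42862 and the microRNA hosts CR31451, CR43334 and CR43650. Those that fell were the hairpin RNAs CR32205 and CR32207, the pseudogene CR43727 and the lncRNAs CR32658, CR42861, CR42491 and CR43241. All 7 that rose were higher in the second wild-type pupal replicate than in the first. The neuronal marker sum was also higher there, at 186.7 FPKM against 100.5, and was 32.8 to 40.9 in larvae. The part of neuronal RNA in these rises was not tested. The median log2 fold change of the 41 was -0.15, and that of all tested genes was -0.07. The counts changed with a library: without the second wild-type pupal replicate 4 rose and 3 fell, and without the second larval replicate 4 rose and 4 fell. Of the 14 genes called, CR32205, CR32218 and CR42549 remained called in the same direction in all 15 alternative settings.

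Comparing med27 RNAi with wild-type pupae asked which transcripts differ at that age when this Mediator subunit is knocked down. Here 5 were higher and 6 lower, beside 19.6% higher and 8.64% lower (28.3% in either direction) among all genes tested. CR32658, CR42862, CR43461 and CR32657, all lncRNAs, and the pseudogene CR42875 rose. The hairpin RNAs CR32205 and CR32207, the lncRNAs CR30009, CR42491 and CR43241 and the mir-8 host CR43650 fell. The median was -0.15 for the 41 and 0.05 for all tested genes. Without the first wild-type pupal replicate 8 rose, and without the second RNAi replicate 3 rose; of the 11 genes called, 8 remained called in the same direction in all 15 alternative settings. The exceptions were CR32657, CR43461 and CR43650.

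The third comparison, med27 RNAi pupae with wild-type larvae, shares its groups with the others, so its values are set beside theirs and are not independent of them. It gave 9 higher and 6 lower, beside 27.8% and 19.5% (47.4% in either direction) among all genes tested, with a median of -0.04 against 0.05. Without the second RNAi replicate 4 were higher. Of the 15 genes called, 10 remained called in the same direction in all 15 alternative settings. The exceptions were CR32657, called in 7 of the 15, CR43465, CR43461, CR43609 and CR42549. CR42549 and CR43461 did not pass without the second RNAi replicate (0.68 and 0.34, limma adjusted p = 0.0643 and 0.24), nor CR43461 without the first larval one (0.38, limma adjusted p = 0.151). CR32657 did not pass without any 1 of the larval or RNAi replicates (0.53 to 0.64, limma adjusted p = 0.0763 to 0.189). CR32205, CR30009, CR32207, CR42491, CR42861 and CR43241 were lower in RNAi pupae than in larvae, by -2.38, -1.34, -1.33, -1.24, -0.98 and -0.90 on the log2 scale. CR32218, CR42862, CR32658, CR42549, CR42875, CR43609, CR43465, CR32657 and CR43461 were higher, by 1.58, 1.55, 0.94, 0.86, 0.83, 0.76, 0.68, 0.58 and 0.54. Their limma adjusted p-values ran from 0.0005 for CR32205 and CR42862 to 0.0447 for CR32657. In the authors' deposited tables, which hold genes with an adjusted p below 0.01, 6 of the 41 were higher and 2 lower in wild-type pupae than in larvae (17.2% and 7.97% of the genes tested here), and 4 were higher and 7 lower in RNAi than in wild-type pupae (10.7% and 10.2%).

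**Figure D2:**
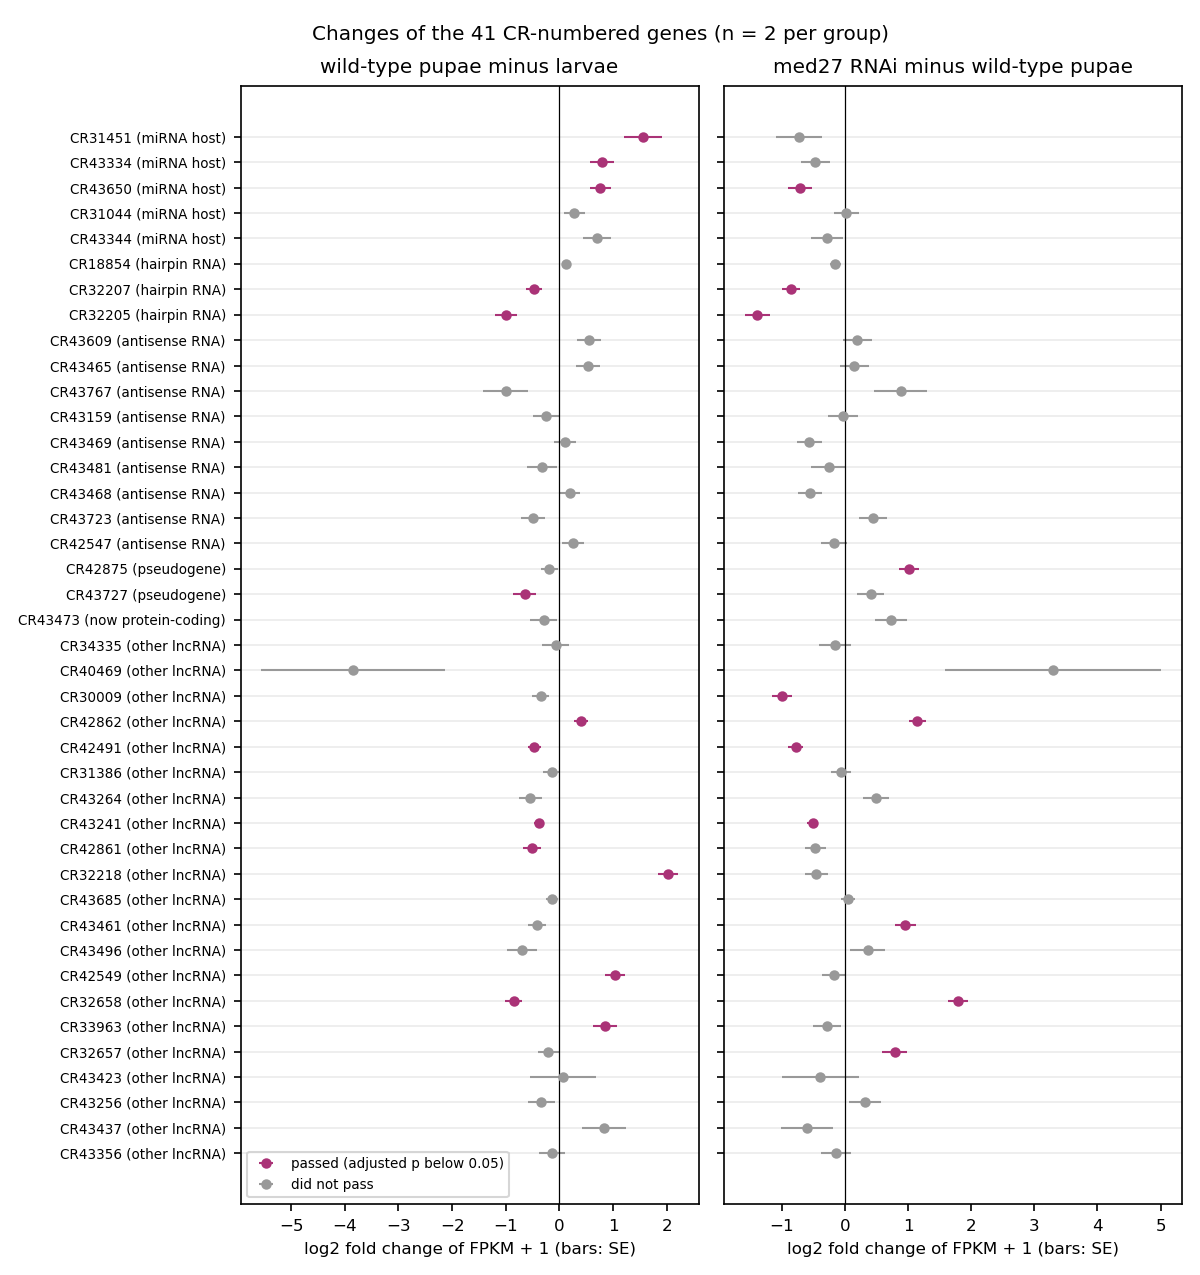
Log2 fold change of FPKM + 1 with its SE from limma (n = 2 per group) for each of the 41 genes, wild-type pupae minus larvae on the left and med27 RNAi minus wild-type pupae on the right, grouped by class; coloured points passed at an adjusted p below 0.05 and grey points did not. CR32218 lies farthest right on the left side at 2.03 and CR32658 is the highest coloured point on the right side at 1.79, while CR40469 has the widest SE, 1.71, in both.

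The 5 microRNA hosts were low transcripts, and 3 of the 5 passed as higher in wild-type pupae than in larvae while 1 of the 5 passed as lower in RNAi than in wild-type pupae, beside 22.7% higher by stage and 8.64% lower with RNAi among all genes tested. Their median log2 fold change was 0.76 in the first comparison and -0.47 in the second, beside -0.07 and 0.05 for all tested genes. CR43334 (FBgn0263039, 3L 628435 to 643900) is the primary transcript of bantam, a microRNA that promotes growth and blocks cell death. It stood at 2.52 and 2.31 FPKM in larvae, 3.68 and 6.51 in wild-type pupae and 3.37 and 3.21 in RNAi pupae. Every pupal replicate was above both larval ones, and the second wild-type pupal replicate was the highest of the 6. The rise from larvae to wild-type pupae was 0.80 (SE 0.23, limma adjusted p = 0.0248). After correction of every library for a trend of its values with transcript length it became -0.35 and did not pass (limma adjusted p = 0.185). RNAi against wild-type pupae did not pass (-0.47, limma adjusted p = 0.169), whereas the authors' deposited table lists the gene there at -0.67.

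CR43650 (FBgn0263659, 2R 12716605 to 12723038) carries mir-8, the fly member of the miR-200 family. It was at 1.58 and 1.82 FPKM in larvae, 3.04 and 4.19 in wild-type pupae and 1.86 and 1.73 in RNAi pupae. Both wild-type pupal replicates exceeded all 4 others, and the larval and RNAi replicates overlapped. It rose by 0.76 from larvae to wild-type pupae (SE 0.19, limma adjusted p = 0.0154), a value that turned to -0.12 with the length trend removed, and fell in RNAi pupae by -0.71 (SE 0.19, limma adjusted p = 0.0313). RNAi pupae and larvae differed by 0.05 and did not pass (limma adjusted p = 0.842). Without the second wild-type pupal replicate neither call held (0.58 and -0.53, limma adjusted p = 0.0726 and 0.13); nor did the rise hold without the first larval replicate (0.70, limma adjusted p = 0.0514), or the fall without the first or the second RNAi replicate (-0.74 and -0.68, limma adjusted p = 0.115 and 0.157).

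CR31451 (FBgn0051451, 3R 19809225 to 19810787), now named lncRNA:mimi, holds mir-9381. In larvae it had 1.98 and 2.22 FPKM, in wild-type pupae 4.93 and 13.1, and in RNAi pupae 5.08 and 4.07. The groups of larvae and pupae did not overlap, but the 2 wild-type pupal replicates were far apart and the RNAi values reached into their range. It rose by 1.56 from larvae to wild-type pupae (SE 0.36, limma adjusted p = 0.0113), or 1.62 without the second larval replicate, which no longer passed (limma adjusted p = 0.054). The size rested on the 2 wild-type pupal replicates: without the second the rise was 0.94 and without the first 2.19, and it passed in both (limma adjusted p = 0.0203 and 0.00323). RNAi did not pass against wild-type pupae (-0.72, limma adjusted p = 0.176), while the authors' deposited table lists -1.01. For CR43334, too, leaving out either larval replicate (0.84 and 0.75, limma adjusted p = 0.0615 and 0.103) or the second wild-type pupal replicate (0.46, limma adjusted p = 0.102) ended the call.

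The other 2 hosts passed in no comparison. CR43344 (FBgn0263049, 2L 18455717 to 18472900) encodes the let-7 complex, whose mir-100, let-7 and mir-125 rise at metamorphosis and mark developmental time in the fly. Its level was 1.05 and 0.878 FPKM in larvae, 3.00 and 1.54 in wild-type pupae and 1.71 and 1.51 in RNAi pupae, so each pupal replicate was above both larval ones. The difference between wild-type stages was 0.70 (SE 0.26, limma adjusted p = 0.0553), on 24 and 20 implied fragments in the larval libraries. CR31044 (FBgn0051044, 3R 25040284 to 25045389), the host of mir-279 and mir-996, which shape sensory neuron fates, had 2.30 and 1.44 FPKM in larvae, 2.58 and 2.32 in wild-type pupae and 2.48 and 2.53 in RNAi pupae. The higher larval replicate lay just below the lower wild-type pupal one, and the stage difference was 0.28 (limma adjusted p = 0.278). The level of a host transcript is not the level of its mature microRNAs, which polyA libraries do not measure. The second wild-type pupal replicate, highest for CR43334, CR43650 and CR31451 and not for CR43344, also had the highest neuronal marker sum, 186.7 FPKM against 100.5 in the first; the part of these markers in the host values was not tested.

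**Figure D3:**
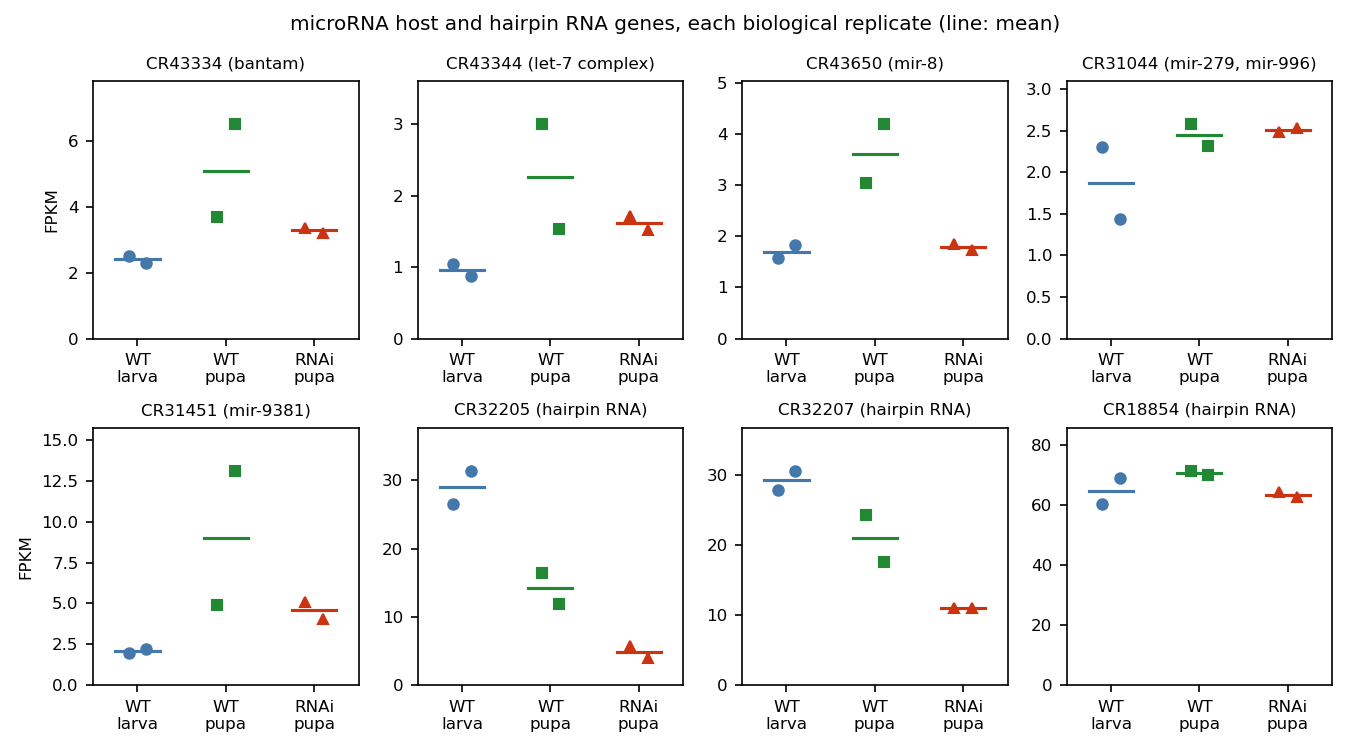
FPKM per biological replicate (symbols) and group mean (lines) of the 5 microRNA hosts and 3 hairpin RNAs, each on its own linear axis from 0. CR32205 and CR32207 step down from larvae over wild-type pupae to RNAi pupae without overlap, CR18854 stays between 60.3 and 71.3 FPKM, and CR31451 spans 4.93 to 13.1 FPKM within wild-type pupae.

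Of the 3 hairpin RNAs, sources of endogenous siRNAs, 2 passed as lower in pupae than in larvae and lower again in RNAi pupae, and 1 passed in no comparison. Among all genes tested, 26.5% were lower by stage and 8.64% lower with RNAi. CR32205 (FBgn0052205, 3L 19415938 to 19417283) had 26.6 and 31.4 FPKM in larvae, 16.4 and 11.9 in wild-type pupae and 5.72 and 3.90 in RNAi pupae. No 2 of the 3 groups overlapped, and the RNAi mean was 0.339 of the wild-type pupal mean. The changes were -0.99 between stages (SE 0.20, limma adjusted p = 0.00661) and -1.39 with RNAi (SE 0.20, limma adjusted p = 0.00351). CR32207 (FBgn0052207, 3L 19470429 to 19471769) on the same arm, had 27.9 and 30.6 FPKM in larvae, 24.4 and 17.5 in wild-type pupae and 11.0 in both RNAi replicates, in the same order and again without overlap. It fell by -0.48 between stages (SE 0.15, limma adjusted p = 0.0327) and by -0.85 with RNAi (SE 0.15, limma adjusted p = 0.00688). RefSeq gives both loci the same synonym, esi-4.1, and similar copies can share reads, so how fragments were split between them is uncertain.

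The stage change of CR32207 was the less stable: it lost its call without either larval replicate (-0.54 and -0.41, limma adjusted p = 0.0586 and 0.142) or without the second wild-type pupal one (-0.25, limma adjusted p = 0.159). Nor did it pass once the length trend was removed (-0.19, limma adjusted p = 0.27) or with libraries scaled to equal sums without CR34335 (-0.27, limma adjusted p = 0.133). The RNAi changes of CR32205 and CR32207 passed in all 15 alternative settings, with values from -1.61 to -1.16 and from -1.08 to -0.62. CR18854 (FBgn0042174, 2L 9787279 to 9790745), the source of esi-1, was the highest of the 3 in wild-type and RNAi pupae and in larvae. It was at 60.3 and 68.7 FPKM in larvae, 71.3 and 69.8 in wild-type pupae and 64.1 and 62.5 in RNAi pupae. Its highest replicate was 1.18 times its lowest, the narrowest range of the 41 genes. The differences were 0.13 between stages (limma adjusted p = 0.24) and -0.15 with RNAi (limma adjusted p = 0.221). The stage difference passed with equal sums without CR34335 (0.34, limma adjusted p = 0.0121), and the RNAi difference passed under quantile normalization (-0.32, limma adjusted p = 0.0276) and median-ratio scaling (-0.24, limma adjusted p = 0.0468). Its exons overlap those of IP3K1 on the opposite strand, which lay at 1.73 to 4.87 FPKM.

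CR34335 (FBgn0085364, X 3439895 to 3440143, minus strand, within DIP-alpha) was the most abundant of the 41 genes by FPKM. This transcript of 249 nt stood at 53728 and 74311 FPKM in larvae, 50127 and 72190 in wild-type pupae and 56723 and 51375 in RNAi pupae. The 3 groups overlapped, and the second replicate was the higher in both wild-type groups and the lower with RNAi. It took 7.05 to 10.7% of all FPKM in a run, but only 0.792 to 1.13% of the implied fragments, because FPKM divides by an effective length of about 156 nt. Neither the stage difference (-0.07, SE 0.25, limma adjusted p = 0.832) nor the RNAi difference (-0.16, SE 0.25, limma adjusted p = 0.678) passed, although with the length trend removed the latter became -0.78 (limma adjusted p = 0.0375). DIP-alpha, which encodes a cell-surface protein of the immunoglobulin family, was at 0.326 to 1.26 FPKM.

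CR40469 (FBgn0058469, X 18880 to 19093) was second, and 1 library decides its values. It stood at 9545 and 11467 FPKM in larvae, at 6917 and 75.3 in wild-type pupae and at 7471 and 6861 in RNAi pupae. Both technical runs of the low replicate were low, at 80.7 and 70.0 FPKM, on about 486 implied fragments in all, and the lowest of the other 5 replicates was 91.1 times higher. With both wild-type pupal replicates no difference passed (-3.85 between stages, SE 1.71, limma adjusted p = 0.0978; 3.30 with RNAi, SE 1.71, limma adjusted p = 0.19). Without the first wild-type pupal replicate the values were -7.10 and 6.55 (limma adjusted p = 1.83e-05 and 3.09e-05), without the second they were -0.60 and 0.05 (limma adjusted p = 0.055 and 0.885), and without either one the RNAi pupae were lower than larvae by -0.55 (limma adjusted p = 0.0163 and 0.0258). The authors' deposited tables list CR40469 at -2.12 for pupae against larvae and at 1.07 for RNAi against wild-type pupae.

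A comparison over all 6992 tested genes showed how rare such a gap was. In the second wild-type pupal replicate 5 genes were at least 8-fold lower than in each of the other 5 replicates, and in any other library at most 1 gene was. The 5 were CR40469, the antisense RNA CR43767, Hsc70-2, CG17549 and CG31157, of which Hsc70-2 and CG31157 lie side by side on 3R. CR43767 (2L 1158576 to 1159355, antisense to Tango14) had 2.01 and 2.91 FPKM in larvae, 1.8 and 0.0456 in wild-type pupae and 2.14 and 2.17 in RNAi pupae. Only the second wild-type pupal replicate was low, with about 2 implied fragments, and neither the stage difference (-1.0, limma adjusted p = 0.0859) nor the RNAi difference (0.88, limma adjusted p = 0.162) passed. Tango14 itself was at 23.6 and 20.5 FPKM in wild-type pupae and at 22.2 to 30.3 elsewhere.

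**Figure D4:**
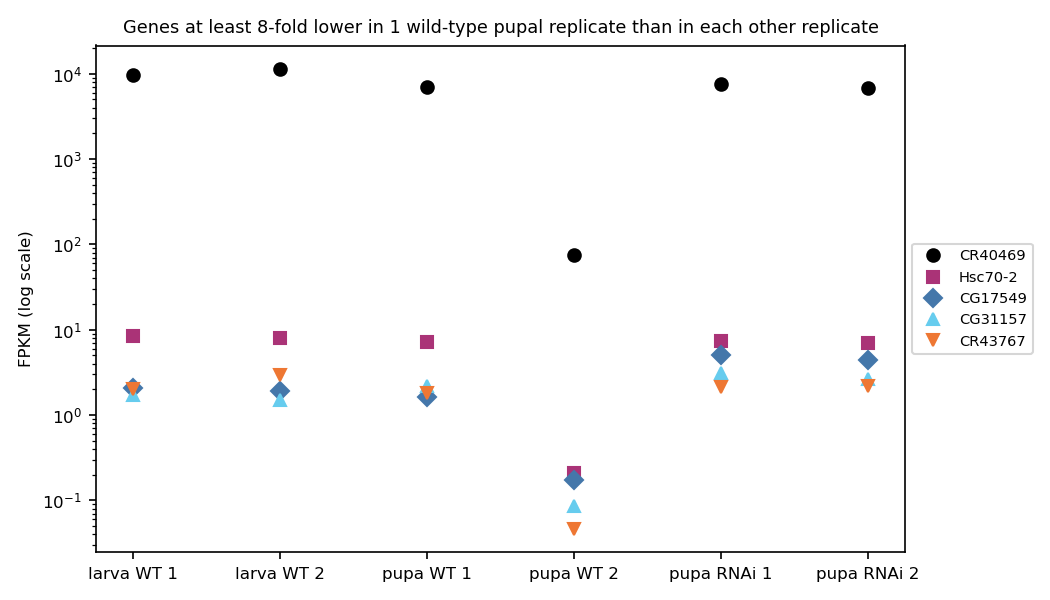
FPKM on a log axis of the 5 genes that were at least 8-fold lower in the second wild-type pupal replicate than in each other replicate, 1 symbol per gene and biological replicate. CR40469 falls to 75.3 FPKM and CR43767 to 0.0456 FPKM there, each of the 5 genes is lowest in that replicate, and the other 5 replicates of CG17549 span 1.63 to 5.04 FPKM.

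Among the 21 other lncRNAs, 4 rose and 4 fell from larvae to wild-type pupae, and 4 rose and 3 fell with RNAi. Of all genes tested, 22.7% rose and 26.5% fell between the stages, and 19.6% rose and 8.64% fell with RNAi. Several lie within coding genes on the same strand, where reads of the host's introns or exons can be counted to either gene, and whether counting used the strand is not stated. CR32658 (FBgn0040859, X 11985297 to 11986305) and CR32657 (X 11981244 to 11981728) lie in Ten-a, which encodes a teneurin, a transmembrane protein that matches synaptic partners, and share no exon with it. CR32658 had 4.2 and 3.64 FPKM in larvae, 1.5 and 1.97 in wild-type pupae and 8.46 and 8.43 in RNAi pupae, and the groups did not overlap. It fell by -0.85 between stages (SE 0.15, limma adjusted p = 0.00482) and rose by 1.79 with RNAi (SE 0.15, limma adjusted p = 0.00089), 4.86 times on the FPKM scale. With the length trend removed the stage fall was -0.49 and did not pass (limma adjusted p = 0.0688). Ten-a had 3.73 and 3.65 FPKM in larvae, 8.58 and 15.7 in wild-type pupae and 5.27 and 5.43 in RNAi pupae. It was highest in the second wild-type pupal replicate, which also had the highest neuronal marker sum, and moved the other way from CR32658 in both comparisons, with 1.43 (limma adjusted p = 0.00357) and -0.99 (limma adjusted p = 0.0211). CR32657 was at 1.4 and 1.22, 1.17 and 0.845, and 2.5 and 2.41 FPKM in the same order, on only 5 to 41 implied fragments. RNAi pupae were above both other groups, with a rise over wild-type pupae of 0.79 (SE 0.20, limma adjusted p = 0.024) that did not pass without the second wild-type pupal replicate (0.67, limma adjusted p = 0.0789) or without the first or second RNAi replicate (0.77 and 0.81, limma adjusted p = 0.133 for each), and was 0.27 once the length trend was removed (limma adjusted p = 0.334).

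CR32218 (FBgn0052218, 3L 19888316 to 19889490) had the largest stage rise of the 41 genes, and lies within the loci of both Mi-2, a chromatin remodeller, and Su(Tpl), a transcription elongation factor, without sharing an exon. It stood at 3.29 and 2.38 FPKM in larvae, 12.5 and 16.8 in wild-type pupae and 9.55 and 11.2 in RNAi pupae. All 4 pupal replicates lay above the larval ones, and the RNAi replicates lay below the wild-type pupal ones. The stage rise was 2.03 (SE 0.18, limma adjusted p = 0.00131), 5.17 times on the FPKM scale, and RNAi did not pass (-0.45, limma adjusted p = 0.108). Su(Tpl) rose by 1.13 (limma adjusted p = 0.00187) and Mi-2 by 0.33 (limma adjusted p = 0.00858) between the same stages, and neither passed with RNAi (-0.26 and 0.07, limma adjusted p = 0.225 and 0.514).

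A further 5 lncRNAs share exon sequence with a coding gene on the same strand. CR42862 (FBgn0262109, 3L 224106 to 230964), in the locus of CG33229, had 73.6 and 67.6 FPKM in larvae, 84.9 and 103 in wild-type pupae and 189 and 231 in RNAi pupae. It was the only one of the 41 that passed as higher in both comparisons, with all 3 groups apart: 0.40 between stages (SE 0.13, limma adjusted p = 0.0362) and 1.15 with RNAi (SE 0.13, limma adjusted p = 0.00172). The stage value became -0.14 with the length trend removed and did not pass there (limma adjusted p = 0.279). Nor did it pass without either larval replicate (0.46 and 0.34) or without the second wild-type pupal one (0.26). The RNAi value stayed between 0.95 and 1.29 and passed in all 15 alternative settings. CG33229 rose between stages by 0.67 (limma adjusted p = 0.00374), was at 41.5 to 49.1 FPKM in every pupal replicate and did not pass with RNAi (-0.03, limma adjusted p = 0.855).

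CR42491 (FBgn0259993, X 656648 to 657843) shares exon sequence with RpL22, which encodes a protein of the large ribosomal subunit. CR42491 stood at 150 and 177 FPKM in larvae, 123 and 113 in wild-type pupae and 74.9 and 62.4 in RNAi pupae, with no overlap between groups. It fell by -0.46 between stages (SE 0.12, limma adjusted p = 0.0162) and by -0.78 with RNAi (SE 0.12, limma adjusted p = 0.00442). RpL22, at 1043 to 1331 FPKM, did not pass in either (-0.17 and -0.12, limma adjusted p = 0.136 and 0.322). The stage fall of CR42491 became -0.08 with the length trend removed and -0.25 with equal sums (limma adjusted p = 0.487 and 0.07), and did not pass without the second larval (-0.35, limma adjusted p = 0.0843) or the second wild-type pupal replicate (-0.40, limma adjusted p = 0.0874); the RNAi fall passed in all 15 settings.

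CR43241, in CG42748, had 27.6 and 26.8 FPKM in larvae, 19.7 and 21.4 in wild-type pupae and 13.9 and 14.3 in RNAi pupae, 3 groups that did not overlap. It fell by -0.39 between stages (SE 0.09, limma adjusted p = 0.0105), a value that became 0.01 with the length trend removed and -0.18 with equal sums (limma adjusted p = 0.941 and 0.208) and did not pass without the first wild-type pupal replicate (-0.33, limma adjusted p = 0.0553). It also fell with RNAi, by -0.51 (SE 0.09, limma adjusted p = 0.00664). CG42748, at 4.84 to 10.3 FPKM, did not pass in either comparison (0.50 and -0.24, limma adjusted p = 0.0995 and 0.451).

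CR42549, in mura, which encodes a RING-finger ubiquitin ligase, and CR33963, in Tis11, which encodes a zinc-finger protein of messenger RNA decay, rose with stage as their partners did. CR42549 was at 3.28 and 3.81 FPKM in larvae, 7.20 and 9.53 in wild-type pupae and 6.26 and 8.31 in RNAi pupae, so both pupal groups lay above the larvae and overlapped each other. The stage rise was 1.03 (SE 0.18, limma adjusted p = 0.00428), beside 1.25 for mura (limma adjusted p = 0.00186). CR33963 was at 1.37 and 0.983 FPKM in larvae, 2.79 and 3.03 in wild-type pupae and 1.71 and 2.79 in RNAi pupae, on 23 and 16 implied fragments in larvae. Its stage rise was 0.85 (SE 0.22, limma adjusted p = 0.018), beside 0.89 for Tis11 (limma adjusted p = 0.0117), and did not pass under quantile normalization (0.57, limma adjusted p = 0.0635) or without the second larval (0.72, limma adjusted p = 0.0864) or second wild-type pupal replicate (0.80, limma adjusted p = 0.0685). With RNAi none of these 4 genes passed, with values from -0.29 to 0.21.

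**Figure D5:**
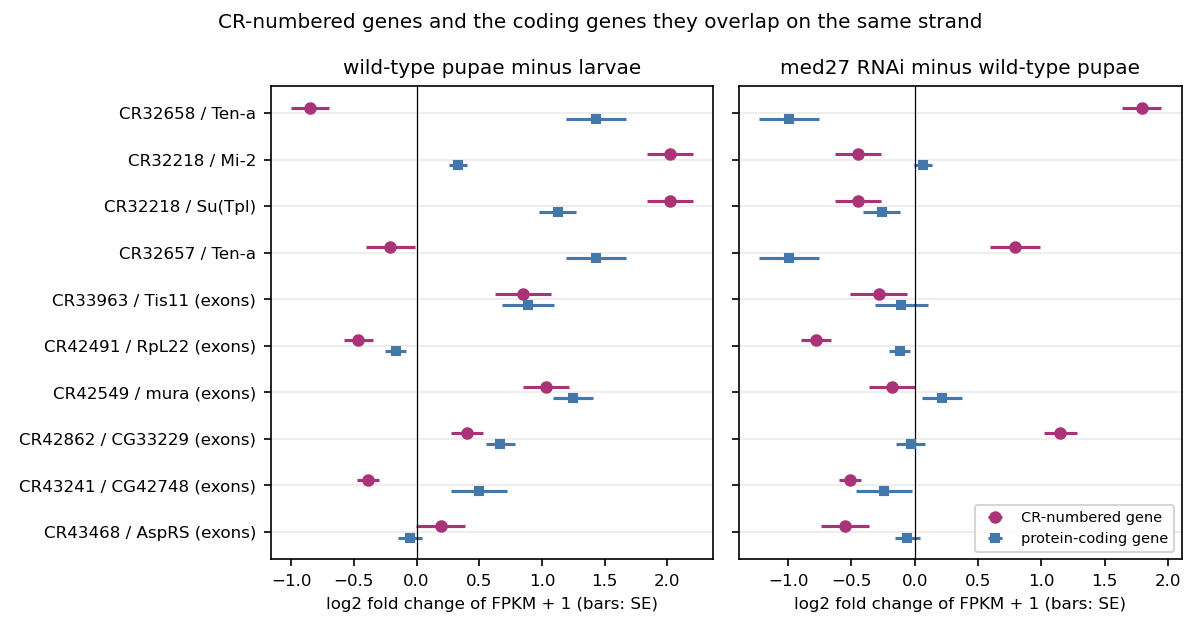
Log2 fold change of FPKM + 1 with its SE (limma, n = 2 per group) of CR-numbered genes (circles) and of the coding gene each overlaps on the same strand (squares); "exons" marks pairs that share exon sequence. CR32658 and Ten-a lie on opposite sides of 0 in both comparisons, CR42862 rises by 1.15 with RNAi while CG33229 stays at -0.03, and CR42549 and CR33963 lie near mura and Tis11.

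The lncRNA CR30009 (FBgn0050009, 2R 6148820 to 6151331) overlaps no other gene and fell with RNAi. It had 275 and 195 FPKM in larvae, 197 and 167 in wild-type pupae and 93.7 and 87.6 in RNAi pupae. The larval and wild-type pupal ranges overlapped and both RNAi replicates were below all others, with a mean 0.498 of the wild-type pupal one. The RNAi fall was -1.0 (SE 0.16, limma adjusted p = 0.00525) and passed in all 15 alternative settings, and the stage difference did not pass (-0.35, limma adjusted p = 0.106). The larval replicates decided the latter: without the second it was -0.59 and passed (limma adjusted p = 0.0179), and without the first it was -0.10 (limma adjusted p = 0.483). With a replicate block it passed (limma adjusted p = 0.0472). CG12911, the nearest coding gene at 38 nt, was at 0.0283 to 0.227 FPKM.

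CR43461, on the strand opposite to CG3168, rose with RNAi. It stood at 6.68 and 8.56 FPKM in larvae, 5.58 and 5.24 in wild-type pupae and 9.83 and 13.4 in RNAi pupae, and the RNAi replicates were above all others. The rise was 0.96 (SE 0.17, limma adjusted p = 0.00742), or 0.76 without the second RNAi replicate (limma adjusted p = 0.0525), and 0.50 once the length trend was removed (limma adjusted p = 0.0571). CG3168 was at 0.0348 to 0.834 FPKM. CR42861, next to Pdcd4, had 16.5 and 16.2 FPKM in larvae, 13 and 9.51 in wild-type pupae and 8.87 and 6.82 in RNAi pupae. Each group lay below the one before without overlap. Its stage fall of -0.52 (SE 0.17, limma adjusted p = 0.0381) became -0.05 with the length trend removed and -0.32 with equal sums (limma adjusted p = 0.802 and 0.131), and did not pass without either larval replicate (-0.51 and -0.53, limma adjusted p = 0.109 and 0.118) or without the second wild-type pupal one (-0.31, limma adjusted p = 0.206). With RNAi its -0.46 did not pass (limma adjusted p = 0.0789), and Pdcd4, which encodes an inhibitor of translation, rose in both comparisons (0.31 and 0.27, limma adjusted p = 0.0174 and 0.0444).

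Others among the abundant lncRNAs did not pass between any groups. CR31386 ranged from 78.4 to 113 FPKM, with a stage difference of -0.15 and an RNAi difference of -0.06 (limma adjusted p = 0.459 and 0.789). CR43264 had 93.7 and 95.4 FPKM in larvae, 72.5 and 57.7 in wild-type pupae and 72.3 and 116 in RNAi pupae. Its larval replicates lay above the wild-type pupal ones, and the RNAi replicates were far apart. The stage value was -0.54 (SE 0.21, limma adjusted p = 0.0653), which passed when either RNAi replicate was left out of the shared spread (limma adjusted p = 0.0133 and 0.0134); the RNAi value was 0.50 (limma adjusted p = 0.117), or 0.84 without the first RNAi replicate and 0.16 without the second (limma adjusted p = 0.0153 and 0.543). CR43685 stayed between 7.75 and 9.33 FPKM. The low lncRNAs CR43496 (5.01 to 12.9 FPKM), CR43256 (0.862 to 2.01), CR43437 (0.301 to 2.3) and CR43356 (0.576 to 1.34) passed in no comparison either. CR43423, which lies opposite to the bantam transcript CR43334, had 0.151 and 4.19 FPKM in the 2 larval replicates, on about 2 and 43 implied fragments, the widest gap of the 41 genes within the larval group.

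The 9 antisense RNAs were all low, with means of 1.08 to 3.16 FPKM, and none passed by limma between wild-type stages or with RNAi. At an unadjusted p below 0.05, 3 of the 9 (CR43609, CR43465 and CR43767) differed between stages and 2 (CR43469 and CR43468) with RNAi, beside 57.2% and 41.3% of all genes tested. The authors' deposited tables list 0 of the 9. CR43609, antisense to Ir21a, had 2.57 and 1.47 FPKM in larvae, 3.09 and 3.69 in wild-type pupae and 3.52 and 4.60 in RNAi pupae. CR43465, antisense to Ucp4B, had 1.54 and 1.77, 3.16 and 2.53, and 2.52 and 4.17 FPKM in the same order. For both genes every pupal replicate was above the larval ones. RNAi pupae passed as higher than larvae, by 0.76 (SE 0.22, limma adjusted p = 0.0277) for CR43609 and 0.68 (SE 0.23, limma adjusted p = 0.0405) for CR43465. Neither passed without the second larval replicate (0.49 and 0.75, limma adjusted p = 0.116 and 0.0891) or the second RNAi replicate (0.61 and 0.41, limma adjusted p = 0.17 and 0.287), nor CR43465 without the first larval one (0.62, limma adjusted p = 0.126). Ir21a and Ucp4B themselves were at 0 to 0.053 and 0 to 0.0675 FPKM.

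The neighbouring pair CR43469, antisense to Balat, and CR43468, antisense to Lfg and Nmda1, lie side by side on 2R. CR43468 also shares exon sequence with AspRS on the same strand, so reads of AspRS can be counted to it. AspRS was at 108.5 to 128.4 FPKM and passed neither between stages nor with RNAi (-0.06 for each, limma adjusted p = 0.653 and 0.691). CR43469 had 1.99 and 1.59 FPKM in larvae, 1.75 and 2.26 in wild-type pupae and 1.13 and 0.940 in RNAi pupae, and CR43468 had 1.42 and 1.72, 1.93 and 1.91, and 0.960 and 1.04. Both RNAi replicates were below all wild-type ones for either gene, and neither RNAi difference passed (-0.56 and -0.55, limma adjusted p = 0.0809 and 0.0714). Lfg fell with RNAi by -0.61 (limma adjusted p = 0.0493), and Nmda1 did not pass (-0.06, limma adjusted p = 0.632). CR43723, antisense to Coop, had 1.27 and 1.47, 0.527 and 0.864, and 1.26 and 1.34 FPKM, lowest in both wild-type pupal replicates. Its differences did not pass (-0.49 and 0.45, limma adjusted p = 0.101 and 0.168), while Coop, at 11.4 to 22.8 FPKM, fell between stages (-0.65, limma adjusted p = 0.0181) and rose with RNAi (0.69, limma adjusted p = 0.0237). The remaining antisense RNAs CR43159, CR43481 and CR42547 had values between 0.880 and 3.08 FPKM, and passed in no comparison.

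Of the 2 pseudogenes, 1 passed in each of the wild-type stage and the RNAi comparison, beside 49.2% and 28.3% of all genes tested. CR42875 (FBgn0262149, 3R 2953809 to 2954789) had 7.98 and 7.29 FPKM in larvae, 5.81 and 7.41 in wild-type pupae and 12.7 and 16.2 in RNAi pupae. The wild-type groups overlapped and both RNAi replicates were above them, with a rise over wild-type pupae of 1.02 (SE 0.16, limma adjusted p = 0.00467) that passed in all 15 alternative settings. CG10068, 59 nt away, did not pass with RNAi (0.33, limma adjusted p = 0.0843). CR43727 had 1.39 and 1.78, 0.6 and 0.692, and 1.17 and 1.21 FPKM in the same order, lowest in both wild-type pupal replicates. Its stage fall of -0.65 (SE 0.21, limma adjusted p = 0.0384) passed in 4 of 15 alternative settings, and in no setting that left out a replicate (-0.76 to -0.54, limma adjusted p = 0.0524 to 0.154). Smn, which encodes a protein of spliceosome assembly and lies 89 nt away, fell by -0.64 (limma adjusted p = 0.00198). CR43473, the locus now annotated as coding, had 1.86 and 1.5, 1.61 and 0.832, and 2.14 and 3.18 FPKM, with RNAi above both wild-type groups and no call (0.73 over wild-type pupae, limma adjusted p = 0.0696).

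The annotation of the loci is a feature that the choice by name and level did not use. Of the 41, 33 overlap another gene by position and 8 overlap none; 6 share exon sequence with a coding gene on the same strand and 17 with a gene on the opposite strand. The 6 same-strand pairs had changes of the same sign in 4 of 6 cases in each of the stage and RNAi comparisons, with Pearson's r of 0.80 and 0.26 between the log2 fold changes of the partners. For the 10 opposite-strand pairs with both tested, 1 partner per gene, r was 0.57 and 0.45, with the same sign in 8 and 6. CR43334 and CR43423 are each other's partner there and enter from both sides. For the 28 pairs of a CR-numbered gene and its nearest coding gene with both tested, r was 0.04 and -0.37, with the same sign in 15 and 11. These are descriptions across pairs that share libraries, some of them reads, and in places a partner. In cells sorted in bulk, fewer cells of a kind and less RNA per cell cannot be told apart, and this holds for every change given here.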

How the data were processed

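RNA of sorted neuroblasts was measured in 10 samples (6 biological replicates, 2 in each of 3 groups, with 2 technical runs of each pupal replicate). Per the labels' protocols, libraries were made from polyA RNA with dUTP, which keeps the strand. Per the file headers, the values the authors deposited for each run are FPKM of genes from Cufflinks, with confidence bounds. Tools named in the submitters' processing notes are DESeq 1.8.3, HTSeq, Cufflinks 1.3.0, TopHat 1.4.1 and BWA 0.6.1, with no order. Genome build, annotation and use of strand in counting: not given in the sources used here. Positions follow the authors' files and count from 1. The authors also deposited 2 tables of DESeq comparisons, with base means (a signal: read counts divided by size factors), the ratio of base means as a fold change, its log2 and p-values, per the file headers; they hold genes with an adjusted p below 0.01. Signs of the RNAi table were turned to RNAi over wild type. Which runs entered these tables is not stated.

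Technical runs (r = 0.99878 to 0.99911, SD of the log2 difference 0.0849 to 0.103 over genes) were averaged as FPKM. The 6992 of 14210 genes with a mean of at least 1 FPKM were tested on the log2(FPKM + 1) scale, which understates changes of low genes, with limma 3.58.1 in R 4.3.3: empirical Bayes moderation with an intensity trend, all 3 groups in 1 fit (3 residual and 4.28 prior degrees of freedom), two-sided, Benjamini-Hochberg over all tested genes, threshold 0.05. The FPKM carry no counts, so no count test was run. Fragments behind a value were estimated from the upper confidence bounds; they are estimates and cover counting error only. The fit was tested on simulated data. Classes, strand and overlaps came from RefSeq and Ensembl release 115 annotation of genome release 6, whose coordinates differ from the files and are not printed. Transcript lengths, used for the length trend and for the implied mapped fragments, came from this Ensembl annotation where it held the gene. They can differ from the lengths behind the FPKM. CR43650 had 9603 nt, longer than its locus given above, and an effective length of about 5092 nt. Values with the length trend removed are uncertain for such genes. Tables used Python 3.11.15, pandas 2.3.3 and numpy 2.4.6, figures matplotlib 3.10.9.

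The 41 genes, the lists, the tests and the alternatives were chosen with earlier results of these data known. Named were the 10 genes of highest mean, up to 8 called genes per direction and comparison with the largest change, and the 3 genes on either side of the level threshold. Genes in the authors' tables with a log2 change of at least 1 and neighbours of all these were named too. CR43685, CR43496, CR43423, CR43256, CR43437, CR43473 and the uncalled microRNA hosts and antisense RNAs were added to account for all classes after their values were seen. Alternatives were another pseudocount (0.1), no level filter, quantile, median-ratio and equal-sum scaling, removal of a length trend, each replicate left out, a replicate block, fits of only the groups compared and the first technical run alone. A group left with 1 replicate is assumed to vary like the others. Whether the replicate numbers pair samples is not stated in the labels, and the main fit did not pair them.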

Additional observations from a re-analysis of the deposited data

How the results depend on the processing

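The 10 genes of highest mean and the genes called in each comparison gave 840 comparisons of a change with its value under an alternative. Uncalled genes outside these 10 were not counted. Of the 840, 741 stayed on the same side of the threshold, 80 lost the call with the same sign and 15 gained one. The other 4 changed sign and lost the call. Among the 741, 16 that passed in neither setting changed sign (CR18854, CR31386, CR34335 and CR43264) and 5 became 0. These 4 called values changed sign when a trend with transcript length was removed, in wild-type pupae against larvae. They were CR42862 (-0.14), CR43241 (0.0116), CR43334 (-0.35) and CR43650 (-0.12). None passed there (limma adjusted p = 0.185 to 0.941), so no change in the new direction was called, and the cause was not tested. For wild-type pupae against larvae (7 higher, 7 lower), no filter on low values gave 4 and 4, equal sums without CR34335 11 and 2, and the length trend removed 5 and 1; equal sums moved the median of all genes to 0.13, and to 0.22 for RNAi against larvae. Leaving out 1 replicate gave 4 to 7 higher and 3 to 7 lower. For RNAi against wild-type pupae (5 higher, 6 lower), the length trend removed gave 3 higher, and leaving out 1 replicate 3 to 8 higher and 5 to 8 lower; for RNAi against larvae (9 higher, 6 lower), 4 to 10 higher and 6 to 9 lower.

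With a replicate block the counts were 7 higher and 8 lower, 5 and 6, and 7 and 6 in the 3 comparisons in turn. Deviations of same-numbered replicates from their group means correlated at r = -0.06, -0.03 and -0.10 over 6992 genes. These values show no strong shared deviation, but with n = 2 they cannot tell whether samples were prepared in pairs. A crossed pairing, added after the data were seen, gave 7 higher and 6 lower for RNAi against larvae. Depth limits the larval values most, where 25 of 41 genes rest on fewer than 100 implied fragments, and n = 2 limits every test.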

Other observations

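Other named non-coding RNA genes serve as a backdrop for the CR-numbered ones: 14 of 36 listed were tested, of which 2 rose and 2 fell from larvae to wild-type pupae, 1 rose and 1 fell with RNAi, and 4 were higher and 5 lower in RNAi pupae than in larvae. Among all genes tested, 49.2%, 28.3% and 47.4% were called in either direction in these comparisons. The last comparison shares its groups with the first 2. roX1 and roX2, the RNAs of the dosage compensation complex on the male X chromosome, moved in opposite directions with RNAi. roX1 stood at 676 and 541 FPKM in larvae, 689 and 749 in wild-type pupae and 391 and 393 in RNAi pupae, a fall of -0.87 against wild-type pupae (SE 0.11, limma adjusted p = 0.00274). roX2 stood at 7.28 and 5.97, 4.74 and 11.0, and 14.9 and 16.7 FPKM, a rise of 1.01 (SE 0.31, limma adjusted p = 0.0465). The RNAi replicates of both lay outside the range of all wild-type ones.

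Hsromega, a nuclear RNA of the heat shock response, rose from 24.4 and 24.6 FPKM in larvae to 42.9 and 41 in wild-type pupae (0.75, SE 0.10, limma adjusted p = 0.00187). Of the host genes of small nucleolar RNAs, Uhg4 and Uhg2 fell between these stages (-0.61 and -0.58, limma adjusted p = 0.0111 for each) and Uhg5 rose (0.63, limma adjusted p = 0.0236).

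Below the level threshold, 5 CR-numbered genes stand in the authors' deposited table of RNAi against wild-type pupae. It lists CR43470 at -3.00, CR43242 at -3.00, CR32027 at -2.25, CR30267 at -2.57 and CR43629 at 1.71, on base means of at most 164.8. CR43470 had 1.51 and 1.2 FPKM in larvae, 1.02 and 1.3 in wild-type pupae and 0.134 in both RNAi replicates. They were not tested here.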
